A study of Mus musculus with 5 samples.

Results

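The D-type cyclins Ccnd1, Ccnd2 and Ccnd3, their kinase partners Cdk4 and Cdk6, the inhibitors Cdkn1a, Cdkn1b and Cdkn1c, and their shared substrate Rb1 were followed across the sorted cells of adult mouse retina. These 9 genes were taken by symbol from the 33696 genes of the count matrices, and all 9 were present. Cells came from Glast-CreERT2; Rosa26-Ai65 mice (C57BL/6J), aged 12 to 20 weeks and pooled over both sexes, which carry a tamoxifen-inducible Cre driven by the Glast promoter and a tdTomato reporter that needs both Cre and FlpO recombination. Eyes received ShH10-GFAP-mKate2 (the control vector, here mKate2 AAV) or ShH10-GFAP-Yap5SA (here Yap5SA AAV, which encodes a YAP variant that Hippo signaling does not inactivate), each also encoding FlpO under the Gfap promoter. Both groups thus shared the reporter genotype, tamoxifen, FlpO and the virus injection, and differed in the delivered coding sequence and in vector dose. The paper gives the same injected volume for both vectors but a higher titer for mKate2 AAV. Retinas were collected 56 days after injection, 16 retinas pooled in the control arm and 21 in the Yap5SA arm, and tdTomato-positive cells were sorted and profiled by 10x Genomics 3' single-cell RNA-seq. How the retinas were divided among the libraries is not given in the sources used here. A library is therefore a pool of animals, and the spread between libraries may be technical.

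D-type cyclins rise in response to growth signals and bind CDK4 or CDK6, and the active kinases phosphorylate the retinoblastoma protein, which then releases E2F factors to drive entry into S phase. The Cip/Kip inhibitors p21 (Cdkn1a), p27 (Cdkn1b) and p57 (Cdkn1c) block cyclin-CDK complexes and hold cells out of the cycle, and p21 is a classic transcriptional target of p53. In the adult mammalian retina the Müller glia (MG) rest outside the cycle with high p27, and YAP can raise Cyclin D1 in them.

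Per the annotation of the assembly GRCm39, Ccnd1 lies on chromosome 7 at 144483668 to 144493662 on the minus strand and Cdkn1c on the same chromosome at 143012069 to 143014806, also on the minus strand. Ccnd2 occupies chromosome 6 at 127102125 to 127129156 on the minus strand, and Cdkn1b chromosome 6 at 134897364 to 134902476 on the plus strand. Chromosome 17 holds Ccnd3 at 47815767 to 47910624 and Cdkn1a at 29309936 to 29319701, both on the plus strand. Cdk4 is found on chromosome 10 at 126895180 to 126903789 and Cdk6 on chromosome 5 at 3391485 to 3581008, both on the plus strand, and Rb1 on chromosome 14 at 73421113 to 73563507 on the minus strand. Whole genes were counted, so a value covers exons and, where the counting took them, introns.

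Promoter sequence was available for 5 of the 9 genes (7 entries, RefSeq, GRCm38.p6), and 3 of these genes are shown because the results below turn on them. Each line gives the 250 bases before an annotated start, on the plus strand. In the Cdk6 and Cdkn1a lines capitals mark the p53 response block, the AP-1 letters TGANTCA or the TEAD letters GGAATG, and in the Cdkn1b line they mark CCAAT. All motifs were searched on both strands.
Cdk6, chr5:3343643-3343892: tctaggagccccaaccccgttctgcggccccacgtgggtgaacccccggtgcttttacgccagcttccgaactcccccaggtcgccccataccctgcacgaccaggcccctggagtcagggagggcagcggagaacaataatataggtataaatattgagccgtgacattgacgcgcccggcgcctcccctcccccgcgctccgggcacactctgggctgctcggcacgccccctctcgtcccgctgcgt
Cdkn1a upstream start, chr17:29090729-29090978: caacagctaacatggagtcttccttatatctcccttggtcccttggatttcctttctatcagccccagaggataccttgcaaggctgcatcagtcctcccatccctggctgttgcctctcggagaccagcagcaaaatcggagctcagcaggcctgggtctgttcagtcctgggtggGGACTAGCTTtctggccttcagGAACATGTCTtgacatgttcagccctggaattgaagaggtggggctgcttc
Cdkn1a downstream start, chr17:29093519-29093768: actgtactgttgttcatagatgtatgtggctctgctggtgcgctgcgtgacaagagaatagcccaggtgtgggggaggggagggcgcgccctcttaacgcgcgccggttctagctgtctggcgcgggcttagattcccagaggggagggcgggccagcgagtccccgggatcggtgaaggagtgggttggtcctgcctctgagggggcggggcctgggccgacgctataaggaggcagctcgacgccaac
Cdkn1b, chr6:134920151-134920400: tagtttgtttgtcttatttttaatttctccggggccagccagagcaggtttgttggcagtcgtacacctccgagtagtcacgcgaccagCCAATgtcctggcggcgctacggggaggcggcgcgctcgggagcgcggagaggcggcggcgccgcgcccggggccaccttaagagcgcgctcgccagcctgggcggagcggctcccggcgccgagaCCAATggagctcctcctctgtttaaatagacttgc
The upstream Cdkn1a start was preceded by 2 matches to the p53 block, which began 73 and 51 bases before it, and the downstream start by none. A p53 block occurred in 7.13% of 32851 promoters of this length, TGANTCA in 6.75%, GGAATG in 12.6% and CCAAT in 33.9%. Cdkn1b had 2 CCAAT matches, 161 and 35 bases before its start, and the Cdk6 window had no match to the p53 block, TGANTCA or GGAATG. The matches overlapped none of the others named, and a match is only a run of letters.

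Before any comparison, the 5 libraries were checked against each other. The first pair of Yap5SA AAV replicates, 1 and 2, had 1361 barcodes in common, 99.78% of the smaller library, against at most 0.2183% for any other pair, and their MG levels of the 9 genes differed by 4.56% at most, so replicate 2 was left out and 4 libraries remained. Of 10749 cells with at least 1000 UMIs and at most 15% mitochondrial UMIs, 6540 were MG, here cells in which Glul, Rlbp1, Slc1a3, Clu and Aqp4 together made up at least 0.5% of UMIs, and 403 cells lay within 20% of that limit. Other classes were gated in the same way on their own markers and are called microglia-like (macrophages included), rod-like, cone-like, bipolar-like and amacrine-like. Of the MG, 246 (3.76%) also passed the limit of another class, 86 of them that of pigment epithelium. The paper excluded the larger of its clusters, which it describes as stressed, before it analyzed MG. No cluster was left out here, so these MG may differ from those of the paper. No gene of interest was used to define any class, and the sorted cells held other classes besides the labelled MG. The libraries differed in depth and stress: the median MG held 6194.5 UMIs in mKate2 AAV replicate 1, 2918.5 in mKate2 AAV replicate 2, 10778 in Yap5SA AAV replicate 1 and 2920 in Yap5SA AAV replicate 3, and immediate-early and heat-shock transcripts made up 0.112%, 2.48%, 0.284% and 1.58% of MG UMIs in the same order, which 4 values given together follow throughout. Replicate 1 of both groups was processed with one software version and the later replicate with another, per the file headers, so the libraries of a group also differ in software version.

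In MG the D cyclins did not separate the groups. Ccnd1 (Cyclin D1, the D cyclin tied to YAP) stood at 88.3 and 133 CPM (UMIs of the gene in every 1000000 UMIs of the summed MG) in the control libraries and at 54.5 and 163 CPM in the Yap5SA AAV libraries, each pair in replicate order. Both extremes belonged to Yap5SA AAV libraries, so the groups overlapped fully, at 111 ± 31.8 against 109 ± 76.7 CPM (SD, n = 2 each). Ccnd2 (Cyclin D2) read 12.3 and 56.3 CPM under mKate2 AAV and 33.6 and 19.4 CPM under Yap5SA AAV, so here the control libraries held both extremes. Ccnd3 (Cyclin D3, the form found in many resting and differentiated cells) had 109 and 156 CPM under mKate2 AAV and 77.4 and 195 CPM under Yap5SA AAV. Its order over the 4 libraries matched that of Ccnd1, with Yap5SA AAV replicate 1 lowest and Yap5SA AAV replicate 3 highest. The paper reports that the YAP5SA protein was lost, and proliferation had ceased, by the collection time used here. It describes the rise of Cyclin D1 with its earlier experiments. All libraries come from the late time, so whether the D cyclins differ while the YAP5SA protein is present was not tested.

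The kinases were steadier. Cdk4, the main partner of the D cyclins in most tissues, stood at 44.6 and 49.4 CPM in the control MG and at 54.5 and 43.8 CPM in the Yap5SA AAV MG. Cdk6, the related kinase known best from blood cells, was at 18.5 and 30.5 CPM in the controls and at 25.0 and 34.3 CPM with Yap5SA AAV. For both kinases the values of the groups interleaved.

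Among the inhibitors, Cdkn1b was high and even while Cdkn1a varied most. Cdkn1b MG levels were 372 and 332 CPM in the mKate2 AAV libraries and 409 and 374 CPM in the Yap5SA AAV libraries. Both Yap5SA AAV values lay above both control values, but the gap between the nearest libraries (372 and 374 CPM) was far smaller than the spread within either group (352 ± 28.2 against 391 ± 24.3 CPM, SD, n = 2 each). Cdkn1c was at 49.8 and 81.2 CPM in the controls and at 79.7 and 51.3 CPM with Yap5SA AAV, an interleaved order. Cdkn1a had 8.42 and 115 CPM in the controls and 43.5 and 24.8 CPM with Yap5SA AAV, so the lowest and the highest library were both controls. Cdkn1a UMIs were also concentrated in few cells: 53 of 1498, 311 of 2898, 123 of 803 and 46 of 1341 MG had any, in the order above, and the top 1% of MG held 60.0%, 57.7%, 36.3% and 74.7% of the UMIs. For Cdkn1b the top 1% of MG held 5.90%, 12.9%, 6.64% and 10.8%. Rb1, the substrate that CDK4 and CDK6 phosphorylate, was at 539 and 232 CPM in the controls and at 413 and 356 CPM in the Yap5SA AAV libraries, which lay between them.

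**Figure D1:**
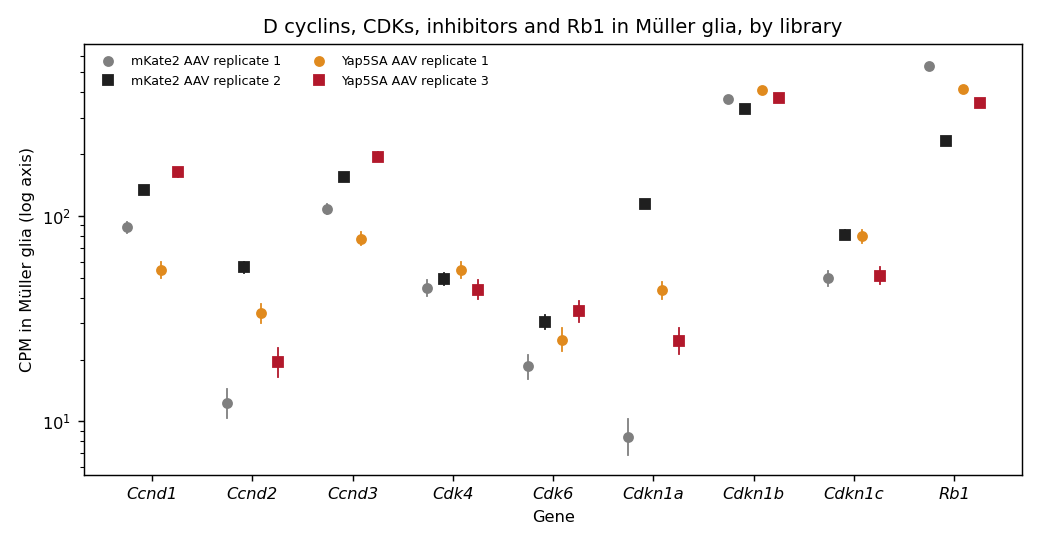
CPM (log axis) of the 9 genes in MG, one point per library, with exact 95% Poisson intervals that cover counting error only (they are shorter than the symbol where no bar shows). Grey and black points are mKate2 AAV replicates 1 and 2, orange and red points Yap5SA AAV replicates 1 and 3; the 2 groups interleave or nearly touch for every gene, and Cdkn1a spreads widest, from 8.42 to 115 CPM.

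The question whether Yap5SA AAV MG differ from control MG 56 days after injection was put to all genes with edgeR's quasi-likelihood test on UMIs summed per library (Benjamini-Hochberg, threshold 0.05). None of the 9 genes was called, against 0% of the 15285 genes tested (0% higher and 0% lower), and 30 genes had an unadjusted p under 0.05. DESeq2 called 0 members as well. The fitted log2 differences (Yap5SA over mKate2 AAV) ran from -1.05 (SE 1.19) for Cdkn1a to 0.15 (SE 0.42) for Cdk6, with Ccnd1 at -0.14 (SE 0.61) and Cdkn1b at 0.05 (SE 0.26), all with an adjusted p of 1.00 in edgeR. In counts simulated on these libraries the same test found 0.5% of the genes given a 2-fold change and 64.0% of those given an 8-fold change, with 6 and 35 false calls among the unaltered genes, so a change of 2-fold in any of the 9 genes would mostly have been missed. Leaving out 1 library turned the sign for 8 of the 9 genes, Cdkn1b excepted.

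Counting cells gave the same picture. After thinning each MG to 2000 UMIs, which removed 308, 870, 93 and 411 shallower MG, 14.6% and 16.8% of control MG and 7.75% and 23.5% of Yap5SA AAV MG held a Ccnd1 UMI. Without thinning these shares were 31.8%, 25.5%, 28.4% and 34.2%. In rod-like cells, which should hold little Ccnd1, the thinned share was 1.61% in mKate2 AAV replicate 2 and 1.33% in Yap5SA AAV replicate 3, so the MG shares lay well above that background. Cdkn1b was found in 50.0% and 44.6% of control MG and in 47.6% and 46.8% of Yap5SA AAV MG, and Cdkn1a in 1.18% and 6.71% against 4.79% and 1.61%. None of the 9 shares separated the groups: the two-sided exact permutation p was 0.667 for Cdkn1c and 1 for the other 8 genes, where 2 libraries against 2 cannot go below 0.333 (adjusted p = 1 for all 9).

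The shares of Ccnd1 and Ccnd3 among the D cyclins varied less between libraries than their levels. The 3 cyclins were set beside each other as shares of their summed UMIs, since 3' UMIs count each captured molecule once. Capture may still differ between them. If introns were counted, the longer gene Ccnd3 (94.858 kb, against 9.995 kb for Ccnd1 and 27.032 kb for Ccnd2) may gain counts, which was not tested. Ccnd3 made up 51.9% and 45.1% of D cyclin UMIs in control MG and 46.8% and 51.6% in Yap5SA AAV MG. Ccnd1 followed with 42.2% and 38.6% in the controls and 33.0% and 43.2% with Yap5SA AAV, and Ccnd2 took 5.88%, 16.3%, 20.3% and 5.14% in the same order of libraries. Ccnd3 thus led Ccnd1 in all 4 libraries by summed UMIs. With each cell given equal weight the order turned in mKate2 AAV replicate 2 (Ccnd1 44.0%, Ccnd3 39.4%) and held in the other 3 libraries. The lead in that library thus depended on how the cells were weighted. By summed UMIs the means of Ccnd3 (48.5% against 49.2%) and of Ccnd1 (40.4% against 38.1%) gave an exact permutation p of 1 between AAVs. In microglia-like cells Ccnd1 led instead, at 78.0%, 81.4%, 68.1% and 56.3% of D cyclin UMIs, and Ccnd3 took 16.9%, 8.56%, 21.8% and 19.8%.

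**Figure D2:**
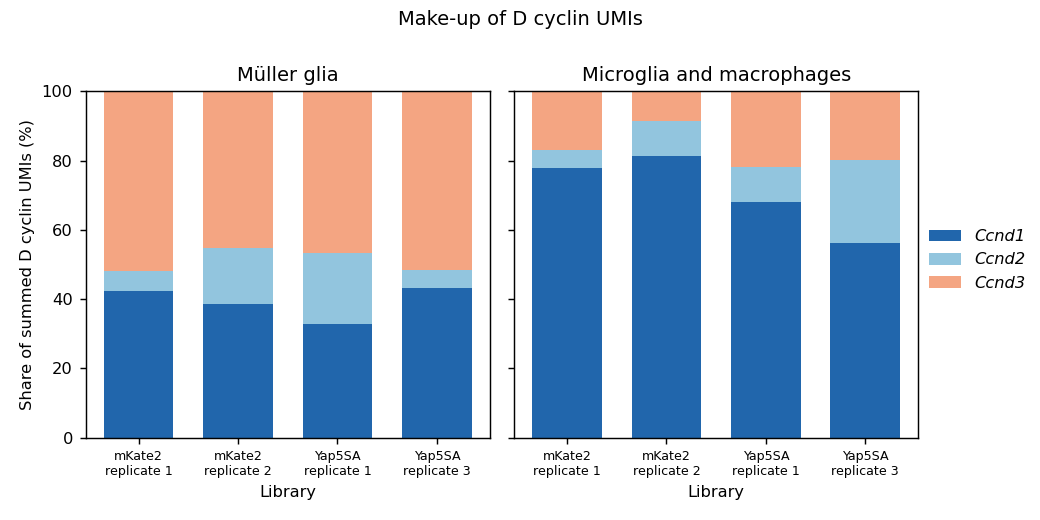
Share of summed D cyclin UMIs (%) taken by Ccnd1, Ccnd2 and Ccnd3 in MG (left) and in microglia-like cells including macrophages (right), one bar per library. Ccnd3 is the largest share in all 4 MG bars (45.1% to 51.9%) and Ccnd1 in all 4 microglia-like bars (56.3% to 81.4%).

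Between cell classes the 9 genes differed strongly. UMIs were summed per class and library, and each class was set against MG in one edgeR fit with the library as a block over 16434 genes. Only mKate2 AAV replicate 2 and Yap5SA AAV replicate 3 held at least 20 rod-like, cone-like, bipolar-like or amacrine-like cells (450 and 419 rod-like, 40 and 51 cone-like, 392 and 89 bipolar-like, 184 and 45 amacrine-like), while microglia-like cells came from all 4 libraries (23, 878, 121 and 57 cells). These sums rest on TMM scaling, and scaling by library totals moved the median log2 difference of all genes by -0.44 in microglia-like, 0.16 in rod-like, 0.46 in cone-like, 0.29 in bipolar-like and 0.34 in amacrine-like cells.

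Microglia-like cells, the resident immune cells of the retina, showed Cdk6, Cdkn1a and Ccnd1 above MG and Ccnd3, Cdkn1b, Cdkn1c and Rb1 below. Of the 9 genes 3 were called higher and 4 lower, against 21.3% of all genes called higher and 31.6% called lower (53% in either direction). For so few genes both counts lay near the background, and the direction split by gene. Cdkn1a reached 402, 135, 219 and 230.5 CPM in the microglia-like cells of the 4 libraries, above the MG of the same library in all 4 (log2 3.07, SE 0.53, edgeR adjusted p = 0.000114). In mKate2 AAV replicate 2 the excess was small, 135 against 115 CPM. Few cells carried much of the Cdkn1a: 5 cells held 114 of 140 UMIs in mKate2 AAV replicate 1 and 73 of 102 in Yap5SA AAV replicate 3. Without the top 5 cells of each library the microglia-like level was 74.6, 99.9, 153 and 65.5 CPM, which in mKate2 AAV replicate 2 is below all MG (115 CPM) and little above MG without their own top 5 cells (93.0 CPM). Cdk6 stood at 329.9, 65.2, 123 and 108 CPM, again above MG in each library (log2 2.65, SE 0.42, edgeR adjusted p = 4.61e-05). Its UMIs were concentrated as well: 5 cells held 74 of 115 Cdk6 UMIs in mKate2 AAV replicate 1 and 46 of 48 in Yap5SA AAV replicate 3. Without the top 5 cells of each library the microglia-like Cdk6 level was 118, 46.7, 92.7 and 4.52 CPM. In Yap5SA AAV replicate 3 that was below MG (34.3 CPM, or 27.7 CPM without their own top 5 cells). In the other libraries it stayed above MG. Leaving out 5 cells removes a far larger part of the microglia-like cells than of the MG (57 and 1341 cells in Yap5SA AAV replicate 3). The trimmed levels of the classes are therefore not directly comparable, for Cdk6 or for Cdkn1a.

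Cdkn1b was the mirror image, at 34.4, 28.6, 51.9 and 27.1 CPM in microglia-like cells against 332 to 409 CPM in MG (log2 -3.00, SE 0.22, edgeR adjusted p = 9.69e-09). Cdkn1c was near 0, with 2.16 ± 2.51 CPM (SD, n = 4) against 65.5 ± 17.3 CPM in MG (log2 -3.84, SE 0.42, edgeR adjusted p = 1.00e-06), and Ccnd3 and Rb1 were lower by log2 -1.54 and -1.80. The Ccnd1 call was fragile. Microglia-like cells had 132, 214, 135 and 122 CPM of Ccnd1, higher than MG in 3 of 4 libraries but lower in Yap5SA AAV replicate 3 (122 against 163 CPM), and the fitted log2 difference of 0.95 (SE 0.34, edgeR adjusted p = 0.0280) lost its call without Yap5SA AAV replicate 1 (log2 0.73, adjusted p = 0.124) and when library totals replaced TMM (log2 0.55, adjusted p = 0.184). Ccnd2 and Cdk4 were not called (log2 0.13 and 0.27, edgeR adjusted p = 0.817 and 0.412). Stress UMIs made up 0.703%, 0.608%, 0.928% and 1.22% of microglia-like UMIs, above the MG of the same library in replicate 1 of both groups and below it in the other libraries, and the part of stress in these differences was not tested.

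In the neuron classes nearly all 9 genes were below MG, with one exception. All 9 were called lower in rod-like cells, where 28.6% of all genes were called lower, 16.8% higher and 45.4% in either direction, and all 9 in amacrine-like cells (24.3% lower, 18% higher and 42.3% in either direction). In bipolar-like cells 8 were called lower (25.7% lower, 18.4% higher and 44.1% in either direction), and Cdk6 was not (log2 -1.36, edgeR adjusted p = 0.0541). In cone-like cells 8 were called lower and 1 higher (24.6% lower, 12.7% higher and 37.2% in either direction). The members were thus called lower far more often than all genes in each neuron class, a count over 9 related genes with no test of its own. Without mKate2 AAV replicate 2, which leaves 1 library with neurons, 5 of the 9 remained called in rod-like cells, and Cdkn1a was no longer called in amacrine-like cells (log2 -0.74, edgeR adjusted p = 0.584). That Cdkn1a call (log2 -2.22, adjusted p = 0.0257) was also lost in DESeq2 (adjusted p = 0.0960), with RLE size factors (0.0718) and with library totals (0.0790). In mKate2 AAV replicate 2 and Yap5SA AAV replicate 3 stress UMIs made up 2.48% and 1.58% of MG UMIs. Shares were 0.534% and 0.396% in rod-like, 0.573% and 1.85% in cone-like, 0.271% and 0.264% in bipolar-like and 0.365% and 0.174% in amacrine-like cells. MG at or below their library's median stress share had 26.9 and 2.86 CPM of Cdkn1a, against 13.5 and 14.0 CPM in amacrine-like cells. The part of stress in these differences was not tested.

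Cdk6 in cone-like cells was the exception. It stood at 170 and 182 CPM in mKate2 AAV replicate 2 and Yap5SA AAV replicate 3, against 30.5 and 34.3 CPM in the MG and 3.58 and 7.84 CPM in the rod-like cells of the same libraries. The cone-like level was thus 5.57-fold and 5.29-fold that of MG (log2 2.34, SE 0.49, edgeR adjusted p = 0.00122), and 26 of 40 and 29 of 51 cone-like cells held a Cdk6 UMI. The top 5 cells held 49 of 107 and 62 of 123 Cdk6 UMIs. Without them the cone-like level was 92.1 and 90.1 CPM, still above all MG of the same library. Cdk6 was called higher in all 11 alternatives run (log2 2.07 to 2.80). The D cyclins that CDK6 needs were low there, with 3 and 10 D cyclin UMIs in all from 40 and 51 cells. Ccnd3 held 3 and 9 of these. Its mean in cone-like cells (9.03 CPM) was near that in rod-like (9.06 CPM) and bipolar-like cells (9.72 CPM), so low Ccnd3 was not particular to cone-like cells. Ccnd2 had 0 UMIs in the cone-like cells of both libraries, so that MG were at least 11.8-fold and 4.38-fold higher (floor of 3 counts per library), and Ccnd1 had 0 and 1.

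Ranked by mean CPM over libraries, MG were highest of the 6 classes for Ccnd2, Ccnd3, Cdk4, Cdkn1b, Cdkn1c and Rb1. For Ccnd3 (134 ± 51.7 CPM, SD, n = 4), Cdkn1b (372 ± 31.1), Cdkn1c (65.5 ± 17.3) and Rb1 (385 ± 127) the MG range did not overlap that of the next class, which was microglia-like cells for Ccnd3 (34.3 ± 10.4), amacrine-like for Cdkn1b (94.6 ± 1.08, n = 2), rod-like for Cdkn1c (32.5 ± 3.60, n = 2) and bipolar-like for Rb1 (143 ± 2.97, n = 2). For Ccnd2 (30.4 ± 19.4) and Cdk4 (48.1 ± 4.97) MG and microglia-like cells overlapped. Cdkn1b was nearly level over rod-like, bipolar-like and amacrine-like cells, at 93.8, 93.3 and 94.6 CPM. Cdkn1c set the photoreceptors apart from the inner neurons, at 32.5 CPM in rod-like and 22.7 CPM in cone-like cells against 4.49 CPM in bipolar-like and 4.23 CPM in amacrine-like cells, with no overlap between these pairs. Ccnd1 in amacrine-like cells (37.6 and 6.36 CPM) rested on few cells: 5 of 184 cells held 137 of its 156 UMIs in mKate2 AAV replicate 2, and without them the level was 4.58 CPM.

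**Figure D3:**
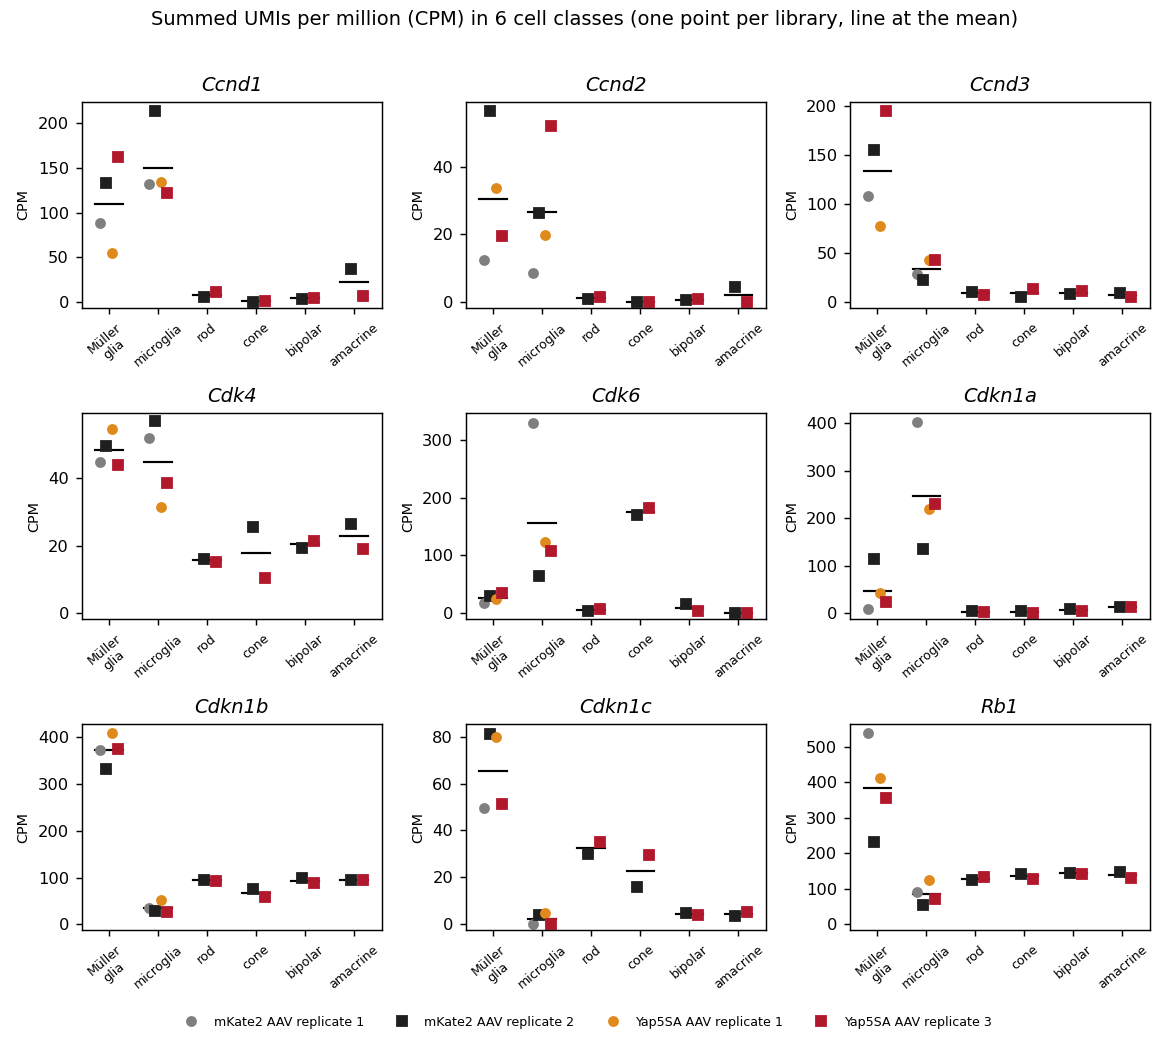
CPM of each gene in 6 marker-gated classes, one point per library (colours as in the plot of MG levels) with a line at the mean; neuron classes have 2 libraries. MG stand alone at the top for Ccnd3, Cdkn1b, Cdkn1c and Rb1, microglia-like cells for Cdkn1a, and cone-like cells reach 170 and 182 CPM for Cdk6.

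The other genes of the pathway were taken from lists written with earlier results of these data known. Of 30 G1/S partners of the 9 genes, all tested, 7 were called higher and 8 lower in microglia-like cells than in MG (edgeR), with a median log2 of 0.43 against -0.35 over all genes. Those counts lay close to the 21.3% and 31.6% of all genes called higher and lower. The higher ones included E2f8 (log2 5.10) and E2f2 (2.93), both E2F factors, Ccne2 (2.87), the Cyclin E that acts after the D cyclins, and Cdkn2a (2.63), which encodes p16 and p19ARF, while Cdkn2b, the p15 inhibitor of CDK4 and CDK6, was lower (-5.22). Of 20 S, G2 and M phase genes 16 were called higher in microglia-like cells and 0 lower, against the same 21.3% and 31.6% (median log2 3.31), led by Ccnb1 (7.23), Mki67 (6.43), Bub1 (6.18), Birc5 (6.17) and Cenpf (5.64). Values of this size come from genes close to 0 in MG and depend on the prior count of the fit.

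In the neuron classes the G1/S partners split both ways, with 3 called higher and 8 lower in rod-like, 3 and 10 in cone-like, 6 and 8 in bipolar-like and 7 and 7 in amacrine-like cells (edgeR). Of all genes 16.8% were called higher and 28.6% lower in rod-like, 12.7% and 24.6% in cone-like, 18.4% and 25.7% in bipolar-like and 18% and 24.3% in amacrine-like cells, so these counts over 30 genes lay near the background, the largest gap being the 10 lower in cone-like cells. Ccne2 was higher in cone-like (log2 4.80) and amacrine-like cells (4.12), Mycn in bipolar-like (5.37) and amacrine-like cells (4.14), and Cdkn2c, the p18 inhibitor of CDK4 and CDK6, was lower in amacrine-like cells (-4.97). Of the 19 p53 targets tested, 6 were called higher and 7 lower in microglia-like cells, against 21.3% and 31.6% of all genes. Perp, a membrane protein that promotes apoptosis, had the largest log2 difference of these and was lower (-9.60), as was Phlda3 (-2.60), while Pmaip1 (6.17) and Bbc3 (3.28), both inducers of apoptosis, and Plk3 (4.04), a stress-response kinase, were higher along with Cdkn1a. Between AAVs 0 genes of any of these lists were called in MG, with 26 G1/S, 14 S, G2 and M phase and 19 p53 genes tested.

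Dissociation leaves immediate-early and heat-shock RNA in sorted cells, and since these libraries differed in it, the MG of each library were divided at that library's median share of stress UMIs. Of the 9 genes 0 were called between high-stress and low-stress MG (edgeR, library as a block), against 0.442% of 13560 genes called (0.435% higher and 0.00737% lower), while 15 of the 19 tested genes of the stress list itself were, as the division fixes. Cdkn1a had the largest difference. It read 10.3, 152, 56.8 and 39.5 CPM in high-stress MG and 6.16, 26.9, 25.6 and 2.86 CPM in low-stress MG, higher in 4 of 4 libraries (log2 1.87, SE 0.39, unadjusted p = 0.00182, edgeR adjusted p = 0.138). This value passed the threshold in DESeq2 (adjusted p = 0.000390), without a filter on low counts (0.00253), with the stress share counted in thinned cells (0.0486) and without mKate2 AAV replicate 1 (0.0363), and missed it in the other alternatives. Of the 17 p53 targets tested, Gadd45a, a growth-arrest gene, was the 1 gene called (log2 1.09).

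The other genes differed less between high-stress and low-stress MG. Ccnd3 and Cdk6 were higher in the high-stress MG of 4 of 4 libraries, by log2 0.31 and 0.36 (edgeR adjusted p = 0.366 and 0.371). Ccnd1 went both ways, from 64.0 to 108 CPM (low-stress to high-stress) in mKate2 AAV replicate 1 but from 207 to 102 CPM in mKate2 AAV replicate 2. Cdkn1b was within log2 0.09 (SE 0.13), and Rb1 within -0.08 (SE 0.15). High-stress MG were also deeper, with a median of 3612 against 2535 UMIs in mKate2 AAV replicate 2 and 12958 against 8884.5 in Yap5SA AAV replicate 1, and the part of depth was not tested. The difference between high-stress and low-stress MG was also compared between AAVs, as was that between microglia-like cells and MG (edgeR interaction terms). No member was called, with 0 of 13560 and 0 of 14168 genes called in all. Cdkn1c had the smallest unadjusted p of the members: its log2 ratio of high-stress to low-stress MG was 0.14 and -0.065 in the control libraries and 0.61 and 0.70 in the Yap5SA AAV libraries (interaction 0.75, SE 0.27, unadjusted p = 0.0294, edgeR adjusted p = 1.00). The Cdkn1c ratios of the groups did not overlap, but the difference did not pass the correction over all genes.

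**Figure D4:**
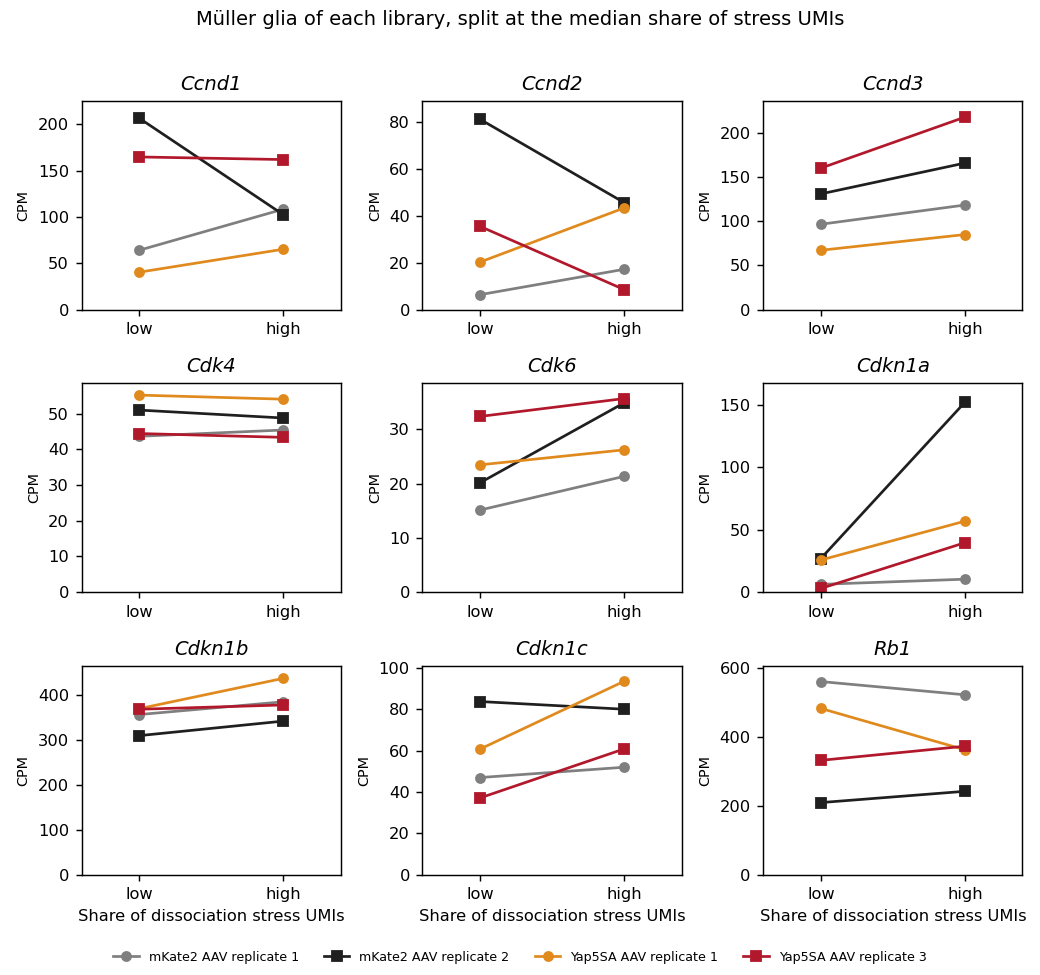
CPM of the 9 genes in low-stress and high-stress MG of each library, joined by a line (colours as in the plot of MG levels). Cdkn1a is higher in high-stress MG of all 4 libraries (26.9 against 152 CPM in mKate2 AAV replicate 2), while the Cdk4 lines are near flat and Ccnd1 is lower in 2 libraries and higher in 2.

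Over the 16 class-by-library sums, which share libraries and are set mostly by class, the members were compared by Pearson's r of log2(CPM + 1), as a description, without Ccnd2, whose mean was under 20 CPM. Cdkn1b went with Rb1 (r = 0.951) and Cdkn1c (0.813), and Ccnd1 with Cdk4 (0.819), Cdkn1a (0.80) and Ccnd3 (0.774), while Ccnd1 and Cdkn1b were nearly unrelated (0.0959). Ccnd3 lay between, with r of 0.533 to Cdkn1b and 0.545 to Rb1, and Cdk6 went with none of them closely (at most 0.457, with Cdkn1a). Among 7973 genes with a mean of at least 20 CPM, the profile of Cdkn1b was most like those of Ptch1 (0.963), the Hedgehog receptor, Slmap (0.962), Rb1, Thoc7 (0.949) and Skp1 (0.947). Ccnd1 was most like Vkorc1 (0.961), Id2 (0.949), F11r (0.943), Ahnak (0.939) and Stk10 (0.936), and Ccnd3 like Mob3b (0.957), Gstm1 (0.954), Plaat3 (0.954), Kcnj10 (0.953), the potassium channel of MG, and Anxa1 (0.952). Cdkn1a was most like Itga5 (0.978), an integrin subunit, Baz1a (0.966), Pim1 (0.960), Tpm3 (0.960) and Tent5c (0.952).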

How the data were processed

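Sorted retinal cells of 5 libraries were profiled by 10x Genomics 3' v3.1 RNA-seq. The deposited values are raw UMI counts per gene and cell that the authors made with Cell Ranger against GRCm39; the submitters' processing notes name version 8.0.0, the file headers 8.0.0 for 3 libraries and 9.0.1 for mKate2 AAV replicate 2 and Yap5SA AAV replicate 3. Whether intronic reads were counted is not given in the sources used here, and if so, long genes such as Cdk6 (189.524 kb) may gain counts. The members and gene lists were chosen with earlier results of these data known.

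Cells with fewer than 1000 UMIs or over 15% mitochondrial UMIs were removed, and no doublet caller was run. MG were gated first. Other classes needed their markers at 1% of UMIs (microglia), 2% (rod), 0.5% (cone), 0.3% (bipolar) or 0.2% (amacrine), limits set after the distributions were seen. Summed MG UMIs were 7833275 to 18588061 per library. Counts were summed per class and library (at least 20 cells) and tested with edgeR 4.0.16 (filterByExpr, TMM, quasi-likelihood, Benjamini-Hochberg at 0.05; R 4.3.3), without a replicate block between AAVs and with the library as a block otherwise. The study states no test across genes. Adjusted p-values throughout come from edgeR unless DESeq2 1.42.0 is named. Each kind of fit was checked on simulated counts in which 200 genes per fold size were altered. For cone-like cells against MG it recovered 0% of 2-fold and 70.0% of 8-fold changes (0 and 11 false calls), and for high-stress against low-stress MG 59.0% and 91.0% (15 and 10 false calls). Shares were taken after thinning to 2000 UMIs and compared by exact permutation (scipy 1.17.1). Intervals are exact at 95% (Poisson or Clopper-Pearson), and the floor is 3 counts. They cover counting error only. Alternatives were the scaling, the tool, the filter, the gates, the libraries used, a replicate block and a software-version term. Scaling by library totals was added after seeing the data.

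Replicate number 1 was the only number shared by groups once the duplicate was left out (correlation of deviations 0.357), so no pairing by number could be established. The libraries could also be matched across groups by software version (8.0.0 and 9.0.1). The main fit between AAVs left that out, and it was a term only in an alternative. Named genes were the 9 members, at most the 5 largest called changes per list and fit, and the 5 genes most like Ccnd1, Ccnd3, Cdkn1a and Cdkn1b.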

Additional observations from a re-analysis of the deposited data

Results flagged for a closer look

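Cdk4 in microglia-like cells relative to MG lay on opposite sides of 0 under the AAVs. The log2 ratio of CPM was 0.21 and 0.20 in the control libraries and -0.77 and -0.18 in the Yap5SA AAV libraries, a difference between group means of -0.68. These ratios rest on 18, 286, 54 and 17 Cdk4 UMIs in microglia-like cells. In mKate2 AAV replicate 1 (51.6 CPM, 95% interval 30.6 to 81.6) and Yap5SA AAV replicate 3 (38.4 CPM, 22.4 to 61.5) the exact Poisson interval, which covers counting error only, held the MG level of the same library (44.6 and 43.8 CPM). The side of 0 also depends on the scaling: these are ratios of unscaled CPM, and over all 4 libraries the fitted log2 difference was 0.27 with TMM and -0.14 with library totals. Tested as an interaction across 14168 genes in edgeR, the difference was -0.72 (SE 0.59, unadjusted p = 0.240, adjusted p = 1), which does not pass the threshold.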

How the results depend on the processing

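No member was called between AAVs under any alternative, but directions were unstable. With 1 library left out, the log2 difference ranged from -1.16 to 0.46 for Ccnd1, -1.29 to 1.12 for Ccnd2, -0.91 to 0.46 for Ccnd3, -0.21 to 0.16 for Cdk4, -0.24 to 0.70 for Cdk6, -1.96 to 2.03 for Cdkn1a, -0.52 to 0.41 for Cdkn1c and -0.47 to 0.53 for Rb1; where a group is left with 1 library, that library is assumed to vary like the others. With a replicate block over all 5 libraries, which pairs replicates by number, Ccnd2 (0.17), Cdk4 (0.046), Cdk6 (-0.071), Cdkn1a (0.30), Cdkn1c (0.17) and Rb1 (0.10) turned sign and none was called; this fit puts back Yap5SA AAV replicate 2, which shares 99.78% of its barcodes with replicate 1, as a library of its own, so its signs carry little weight. Ccnd1 turned with an MG marker limit of 1% (0.058) and Rb1 with the software version as a term (0.019). The cause was not tested.

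Of 495 class values of the members under alternatives, 465 kept direction and call. For Ccnd2 in microglia-like cells the range without 1 library was -0.49 to 0.52, and library totals gave -0.29 for Ccnd2 and -0.14 for Cdk4. Library totals also moved the share of calls that were higher from 40.2% to 27.0% (microglia-like), 34.0% to 52.3% (cone-like, with 3330 genes higher), 41.7% to 53.4% (bipolar-like) and 42.5% to 56.1% (amacrine-like). Leaving out 1 library, which can leave 1 with neurons, the members called lower in rod-like cells ranged from 5 to 9, and all genes called higher and lower ranged from 1213 to 2941 and 2734 to 4697 (rod-like), 872 to 2152 and 1904 to 3985 (cone-like), 1498 to 3194 and 1739 to 4226 (bipolar-like) and 1559 to 3112 and 1643 to 4011 (amacrine-like).

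Between high-stress and low-stress MG, 1 member (Cdkn1a) was called in DESeq2, with no filter and with thinned scoring. All genes called higher numbered 59, against 272 in DESeq2 and 409 with no filter, and lower 1, against 17, 79, 0 with at least 2000 UMIs and 0 with thinned scoring. Leaving out 1 library gave 0 to 1 members higher, 28 to 225 genes higher and 0 to 26 lower, and log2 ranges of -0.18 to 0.47 (Ccnd1), -0.62 to 0.40 (Ccnd2), -0.087 to 0.0054 (Cdk4) and -0.16 to 0.038 (Rb1). Ccnd1 was -0.0050 with thinned scoring, and Ccnd2 was 0.19 without MG that pass another class's limit.

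For the share of MG with a UMI (Yap5SA minus mKate2 AAV, percentage points), leaving out 1 library gave -7.97 to 7.83 (Ccnd1), -3.49 to 2.57 (Ccnd2), -11.8 to 10.2 (Ccnd3), -0.647 to 0.715 (Cdk4), -0.714 to 1.82 (Cdk6), -3.51 to 2.02 (Cdkn1a), -2.81 to 2.61 (Cdkn1b), -4.52 to 0.726 (Cdkn1c) and -15.0 to 16.5 (Rb1). Unthinned, the differences were 2.67 (Ccnd1), 2.38 (Ccnd2), 3.51 (Ccnd3), 2.24 (Cdkn1a), 6.05 (Cdkn1b) and 2.80 (Cdkn1c), and the 1% limit gave 0.912 (Ccnd1) and 0.905 (Cdkn1b). For the make-up, ranges were -7.46 to 2.80 (Ccnd1), -5.94 to 9.19 (Ccnd2) and -2.71 to 4.12 (Ccnd3), and the 1% limit gave -2.32 for Ccnd3.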

Other observations

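A group of cells outside the 6 classes held far more Ccnd1 than any class described. It was picked after values were seen, as unclassified cells with at least 0.2% of their UMIs from Igfbp2, and it is given as a description with no test and no name. mKate2 AAV replicate 2 held 131 such cells (median 3779 UMIs), Yap5SA AAV replicate 1 held 5, and mKate2 AAV replicate 1 and Yap5SA AAV replicate 3 held 0. In mKate2 AAV replicate 2 the cells reached 4300.3 CPM of Ccnd1, with a UMI in 125 of 131 cells, against 133 CPM in the MG of that library. Ccnd2 stood at 744 CPM and Cdkn1a at 284 CPM, and Cdkn2a, which encodes p16 and p19ARF, at 399 CPM. The inhibitor Cdkn1b (60.8 CPM) and Rb1 (34.4 CPM), both high in MG, were low. Glul (120.3 CPM) belongs to the MG markers that the gate kept low in unclassified cells, so its low level is no finding of its own. The mitotic and replication genes Cenpf (243 CPM, 15 cells) and Top2a (198 CPM, 11 cells) were present in a few of them. The 5 cells of Yap5SA AAV replicate 1 had 1992 CPM of Ccnd1 and 572 CPM of Cdkn2a. The unclassified cells below the Igfbp2 limit had 90.9, 446, 189 and 47.3 CPM of Ccnd1 in the 4 libraries, against 88.3, 133, 54.5 and 163 CPM in MG. In mKate2 AAV replicate 2 and Yap5SA AAV replicate 1 a Ccnd1 level above MG was thus not limited to the picked cells. It was near MG in mKate2 AAV replicate 1 and below MG in Yap5SA AAV replicate 3. In mKate2 AAV replicate 2, 72 of the 628 cells below the limit still held Igfbp2 UMIs. Whether these are cells of the same kind was not tested.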
